A study of Mus musculus with 78 samples.

Results

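Length of exposure was examined in the liver samples collected at 78 weeks, which were ordered by the number of weeks the mouse had received dichloroacetic acid (DCA) in its drinking water. The members were all samples labelled with collection at 78 weeks whose library also appeared in the normalized table of the study, 23 of 30 such samples, in a series of 78 samples of which 68 were kept. Male B6C3F1 mice drank DCA at 3.5 g/L from 4 weeks of age and were switched to plain water at set times. Archived liver sections were profiled by TempO-Seq, which ligates paired probes that have bound neighbouring stretches of an RNA and counts the products, for 2755 genes. Control-78 mice received water alone (0 weeks of DCA, 6 libraries, mice 85 to 90). S1-78 mice received DCA for 10 weeks and then water for 68 weeks (6 libraries, mice 31 to 36), and S2-78 mice received 32 weeks of DCA and 46 of water (4 libraries, mice 43, 44, 45 and 47). In S3-78 the times were 57 and 21 weeks (4 libraries, mice 55, 56, 59 and 60), and Direct-78 mice drank DCA for all 78 weeks (3 libraries, mice 64, 65 and 66). Each library came from a different mouse, and values of S2-78, S3-78 and Direct-78 are given below in this order of mice. Weeks on DCA and weeks since DCA sum to 78 in each treated group, so long exposure and recent exposure cannot be told apart.

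DCA is a by-product of water chlorination and an inhibitor of pyruvate dehydrogenase kinases, which restrain the entry of pyruvate into the tricarboxylic acid cycle. Long exposure causes liver tumours in mice. The liver makes most plasma proteins, including clotting, complement and acute phase factors, and it also synthesizes cholesterol and bile acids, oxidizes fatty acids and clears foreign compounds, and many of these genes differ in level between male and female mice.

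Depth fell as weeks of DCA rose. The total count per library ran from 2098777 to 4285848 in Control-78 (median 3505219.5), from 1665464 to 3301147 in S1-78 (median 2684483.5), from 1187668 to 2475996 in S2-78 (median 1390514.5), from 1154431 to 1936370 in S3-78 (median 1359655.5) and from 541245 to 699825 in Direct-78 (median 671116). The median number of genes with at least 1 count was 2478.5, 2391, 2163.5, 2396.5 and 2059 in the same order. Direct-78 lay below every other group in total count, and S3-78 lay below Control-78 without overlap. Depth and weeks of DCA therefore cannot be told apart in these libraries. Expression is given as CPM, the count relative to the library total after TMM scaling. A gene with 0 counts was bounded by 3 counts per library, which is 3.23, 4.32 and 4.34 CPM in the Direct-78 libraries and covers counting error only. In all, 121 of 2205 tested genes were at 0 in each of the 3 Direct-78 libraries. Abundant transcripts had been attenuated in the assay, so levels are compared between libraries and not between genes.

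**Figure D1:**
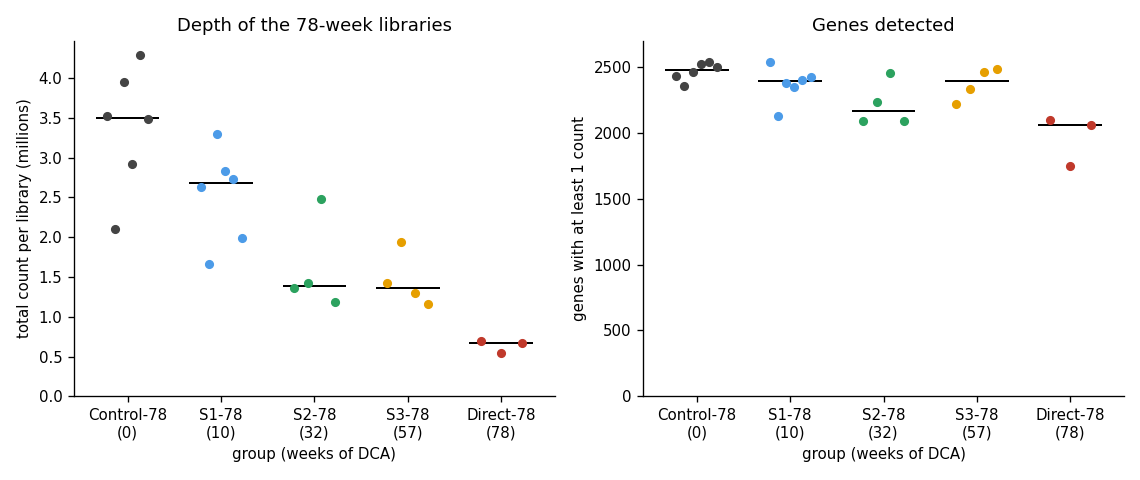
Total count (left) and number of genes with at least 1 count (right) in each 78-week library, by group with weeks of DCA in brackets. Points are mice and black lines are group medians. The median total count falls from 3505219.5 in Control-78 to 671116 in Direct-78.

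The tissue label was checked against markers. Of 19 hepatocyte markers 9 were on the panel, none was at 0 in all libraries, and TTR had the highest CPM, which attenuation keeps from being a rank of abundance. Their summed level was 61513 to 78130.3 CPM in Control-78 (median 67315), 52886 to 91164 in S1-78 (median 70503), 57839, 71802, 36441 and 72549 in S2-78, 54301, 54938, 50919 and 40387 in S3-78, and 28386, 40398 and 36932 in Direct-78. Hepatocyte markers were thus present throughout, and the sums of S3-78 and Direct-78 lay below the control range. In whole tissue, fewer cells of a type and less RNA per cell cannot be told apart.

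Markers of acinar pancreas (18 of 30 on the panel, CEL with the highest CPM) summed to 33134 CPM in mouse 36 of S1-78 and 18980 in mouse 47 of S2-78, but to at most 777 in the other 21 libraries. Control-78 had at most 88 CPM, S3-78 330, 33.5, 183 and 112 and Direct-78 777, 124 and 459, so that 6 of these 7 libraries were above every control. The markers did not rise together. In Direct-78 ZG16 had the highest mean, 243 CPM against 2.2 in Control-78, followed by TRY4 (57.7 against 12.2) and REG1 (54.2 against 0.06). CPA1 had 5.02 against 0.95 and CEL 1.93 against 2.16, and CTRB1 and CELA2A were at 0 in Direct-78. The 9 tested pancreas markers had a median change of -3.71 with 0 called by edgeR, DESeq2 or limma voom (1 in edgeR at an unadjusted p under 0.05), and of 2.03 with 1 called higher without mice 36 and 47. Muscle markers (11 of 15, ACTA1 with the highest CPM) reached 9092 CPM in mouse 36 and 874 in mouse 43, against at most 166 elsewhere. The libraries of mice 36, 43 and 47 stand apart in these markers. Stellate cell and fibroblast markers (8 of 16, COL1A1 with the highest CPM) summed to 84.4 to 223 CPM in Control-78, 183 to 1766 in S1-78, 877, 687, 287 and 134 in S2-78, 118, 126, 266 and 331 in S3-78, and 237, 138 and 177 in Direct-78. They were highest in S1-78 and S2-78, and the treated groups overlapped the controls. Erythroid markers (4 of 12, HBA-A2 with the highest CPM) summed to 973 to 1971 CPM in Control-78, 725 to 3022 in S1-78, 362, 622, 420.1 and 1696 in S2-78, 716, 628, 262 and 566 in S3-78, and 836, 1087 and 661 in Direct-78, so that S3-78 lay below the controls. Macrophage and Kupffer cell markers (6 of 18, LYZ2 with the highest CPM) summed to 596 to 2205 CPM in Control-78, 412 to 1343 in S1-78, 1289.8, 1149.8, 2203 and 445 in S2-78, 517, 1626, 2016 and 802 in S3-78, and 416, 596 and 342 in Direct-78. The groups overlapped, with 2 of the 3 Direct-78 libraries below the lowest control. Endothelial (5 of 16, KDR), cholangiocyte (4 of 12, AQP1) and adipocyte markers (6 of 10, FABP4) had group medians of 151 to 246, 120.1 to 297 and 75.5 to 129.6 CPM, with overlap among all groups. Neutrophil (5 of 11, CAMP) and lymphocyte markers (12 of 24, PTPRC) were low, with sums of at most 64.6 and 272 CPM in any library, and medians of 10.5 and 50.9 CPM in Control-78 and 24.6 and 92.6 in Direct-78, again with overlap. In Direct-78 the neutrophil sum was mostly CAMP (mean 27.2 CPM), with S100A8 at 2.51 and S100A9, ELANE and CXCR2 at 0. Lymphocyte markers moved both ways from Control-78 to Direct-78, with means of 26.7 and 11.3 for PTPRC, 6.21 and 0 for CD4 and 4.88 and 27.5 for CD79A. No marker of any of the 11 lists was at 0 in all libraries. The part of these cells in the results was not tested.

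Fewer genes rose than fell with weeks of DCA when all 5 groups were fitted. With the adjusted p limited to 0.05 and the fitted change over 78 weeks required to pass 1.5-fold, 355 of 2205 genes (16.1%) were called, 128 higher (5.80%) and 227 lower (10.3%). Without Direct-78, 85 genes (3.85%) were called, 29 higher (1.32%) and 56 lower (2.54%). Among the treated groups alone, 62 (2.81%) were called, 12 higher (0.544%) and 50 lower (2.27%). Each change is over the weeks that the groups of its fit span. These are 78 for all groups, 57 without Direct-78 and 68 among treated groups. The sizes of change from the 3 fits, here and below, are therefore not on 1 scale. A further test asked whether the 5 group means left a straight line in weeks, and 6 genes (0.272%) passed. At an unadjusted p under 0.05 the 4 tests held 763, 526, 563 and 288 genes. Of the genes called with and without Direct-78, 18 were higher in both fits and 51 lower in both, and 0 were called in opposite directions. These fits share 20 libraries. Among genes called in the fit of all groups, the 5 group means followed the order of weeks strictly in 38 that were higher and 80 that were lower. Over all tested genes, called or not, the means rose strictly in 78 (3.54%) and fell strictly in 112 (5.08%). All 3 trend fits called 3 genes higher and 12 lower. Of the 10 largest rises called with and without Direct-78, only SULT3A1, CYP2C38 and ZFP931 were also called among treated groups. Of the 10 largest falls, LAMA3, C9, C8B, MUP3 and PDIA6 were not called among treated groups. For genes not called there, a graded trend and a step between water and any DCA were not separated.

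The split into higher and lower genes depended on scaling. The median change of all genes was -0.20 on the log2 scale under TMM scaling, 0.03 under RLE scaling and 0.20 under upper-quartile scaling. The split of 128 to 227 became 222 to 147 and 255 to 112. Without Direct-78 the median was 0.04 (TMM), 0.18 (RLE) and 0.31 (upper-quartile), and the split moved from 29 to 56 to 61 to 40 and 81 to 33. Among treated groups, 8 genes (3 higher, 5 lower) were called with RLE factors and 5 (2 higher, 3 lower) with upper-quartile factors. When log2 total count was added as a covariate, edgeR called 0 genes in the fit of all groups while 257 had an unadjusted p under 0.05, and 296 of the 355 genes kept their sign. Thinning of all libraries to the smallest total left 125 genes, 124 of them among the 355, and all 355 kept their sign, as they did in the fit with detected genes as covariate (112 called). Single libraries mattered as well. The count of 355 became 129 without mouse 64, 193 without mouse 66, and in the controls 235 without mouse 90. Without Direct-78 the count of 85 became 26 without mouse 88, 28 without mouse 87, 90 or 55, 32 without mouse 89, 40 without mouse 33 or 45, 42 without mouse 85, 46 without mouse 35 or 60, 47 without mouse 59, 49 without mouse 36, 51 without mouse 34 or 56, 159 without mouse 44, 162 without mouse 32 and 193 without mouse 31. Among treated groups the count of 62 became 0 by edgeR without mouse 33, 34, 35, 36, 64 or 66 (with 457, 466, 461, 471, 422 and 423 at an unadjusted p under 0.05), 24 without mouse 59, 26 without mouse 45, 30 without mouse 55, 36 without mouse 56, 100 without mouse 31, 154 without mouse 47 and 319 without mouse 32. Without both mice 36 and 47, an alternative chosen after seeing the data, the counts were 367, 56 and 52, and 14 genes left a line.

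**Figure D2:**
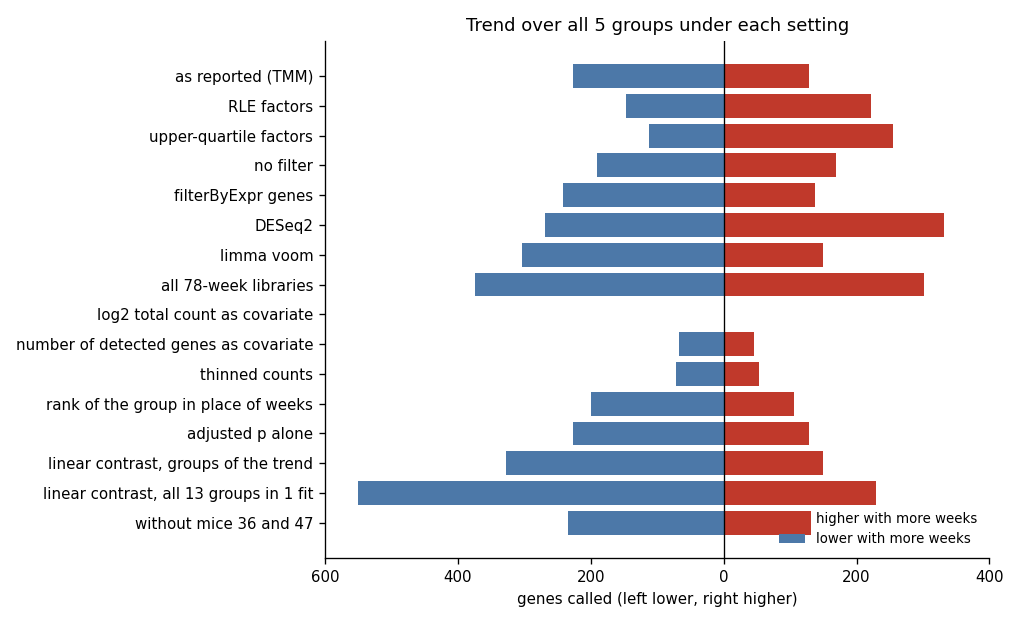
Genes called in the trend over all 5 groups under each setting, with genes lower with more weeks of DCA drawn to the left and genes higher drawn to the right. The reported fit has 227 lower and 128 higher, upper-quartile factors give 112 and 255, and the fit with log2 total count as a covariate has 0.

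Some genes for secreted plasma proteins were called lower with more weeks of DCA. SERPINA3K, a plasma serine protease inhibitor (chr12:104338486-104346144, + strand), had 29577 to 110495 CPM in Control-78 (median 66543), 4481 to 109752 in S1-78 (median 62682), 31559, 19529, 7431 and 4409.8 in S2-78, 4813, 9452, 1598 and 8992 in S3-78 and 2522, 12330.4 and 1360.5 in Direct-78. All 7 libraries of S3-78 and Direct-78 lay below the lowest control, whereas S1-78 overlapped the controls. Its fitted log2 change was -4.07 (standard error 0.74, adjusted p = 0.00172) over 78 weeks and -3.60 (standard error 0.75, adjusted p = 0.0203) over 57 weeks without Direct-78, and 14 of 17 treated libraries were below the control median. C9, a pore-forming component of the complement attack complex (chr15:6445327-6498751, + strand), had 15283 to 67005 CPM in Control-78 (median 30388), 2303 to 15797 in S1-78 (median 12235), 2706, 2339, 5464 and 16551 in S2-78, 510.1, 3568, 5042 and 5673 in S3-78 and 3031, 2052 and 5374 in Direct-78. Its S3-78 and Direct-78 libraries were all under the controls, S2-78 mouse 47 lay within the control range, and all 17 treated libraries were below the control median. C9 changed by -3.20 (standard error 0.62, adjusted p = 0.00221), and by -2.96 (standard error 0.65, adjusted p = 0.0203) without Direct-78. Among treated groups C9 was not called (-1.87, standard error 0.64, adjusted p = 0.0879). C8B, another attack complex component, had 641 to 1672 CPM in Control-78 (median 1298), 61.5 to 1028 in S1-78 (median 825), 233, 301, 164 and 699 in S2-78, 15.6, 259.9, 74.6 and 339.8 in S3-78 and 80.7, 154 and 229 in Direct-78. Again the 7 libraries with the longest exposure fell outside the control range, and the change was -3.16 (standard error 0.60, adjusted p = 0.00221).

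Most members of the lists of liver-made plasma proteins were not called. The counts below stand beside 10.3% of all genes called lower and 5.80% called higher. Of 19 tested acute phase genes 5 were lower (SERPINA3K, FGB, APCS, SERPINA3N and CRP) and CEBPD was higher, with a median change of -1.11 against -0.20 over all genes and -1.19 over the 9 hepatocyte markers, all of them negative. Of 18 complement genes 7 were lower and 0 higher (median -1.03), and of 18 coagulation and fibrinolysis genes 6 were lower and PLAU was higher (median -1.06). The medians stayed negative with RLE and upper-quartile factors, at -0.84 and -0.64 for acute phase, -0.82 and -0.62 for complement and -0.83 and -0.61 for coagulation, while upper-quartile factors left 2 coagulation genes lower and 2 higher. When depth entered the fit as log2 total count, the medians were 0.63 for acute phase and 0.12 for complement, a change of sign, and -0.03 for coagulation, against -0.09 over all genes. In that fit edgeR called 0 genes of each list, with 2, 3 and 1 at an unadjusted p under 0.05. FGB, the fibrinogen beta chain, had 426 to 3594 CPM in Control-78 (median 2283), 227 to 6538 in S1-78 (median 1881), 631, 655, 243 and 252 in S2-78, 653, 708, 93 and 530.0 in S3-78 and 119, 284 and 123 in Direct-78. S3-78 overlapped the controls, Direct-78 did not, and the change was -3.74 (standard error 0.74, adjusted p = 0.00228). F5, coagulation factor V, had 265 to 662 CPM in Control-78 (median 469.8), 233 to 509.6 in S1-78 (median 369), 127, 131, 216 and 189 in S2-78, 211, 281, 171 and 202 in S3-78 and 189, 127 and 101 in Direct-78. It was below the control median in 16 of 17 treated libraries and changed by -1.65 (standard error 0.32, adjusted p = 0.00221). C8A changed by -2.92 (standard error 0.55, adjusted p = 0.00221), C1S1, a protease that starts the classical complement pathway, by -1.70 (standard error 0.40, adjusted p = 0.00809), a sign that reversed to 0.49 once log2 total count entered the fit, and APCS, serum amyloid P, by -2.74 (standard error 0.59, adjusted p = 0.00452). PLAU, which activates plasminogen, had 9.63 to 49.8 CPM in Control-78 (median 14.1), 7.12 to 50.7 in S1-78 (median 19.2), 14.4, 31.8, 59.4 and 43.9 in S2-78, 20.9, 32.7, 168 and 30.2 in S3-78 and 121, 34.6 and 70.9 in Direct-78. It was above the control median in 15 of 17 treated libraries and changed by 2.12 (standard error 0.54, adjusted p = 0.0138). The call of PLAU was lost without mouse 64 (adjusted p = 0.053), that of SERPIND1 lost without mouse 64 (adjusted p = 0.0507), that of KLKB1 lost without mouse 64 (adjusted p = 0.0524) and that of SERPINA3N lost without mice 87 or 64 (largest adjusted p = 0.0558). SERPIND1, heparin cofactor II, had 421 to 837 CPM in Control-78 (median 653), 292 to 1169.9 in S1-78 (median 715), 527, 569, 326 and 137 in S2-78, 341, 255, 242 and 357 in S3-78 and 276, 455 and 227 in Direct-78. S1-78 reached above the control range, 6 of the 7 libraries of S3-78 and Direct-78 lay below it, and the change was -1.35 (standard error 0.38, adjusted p = 0.0194). Under the log2 total count covariate the change of FGB was -0.18 and that of APCS -0.48. The change of F5 was then -0.36, that of KLKB1 -0.39 and that of SERPINA3N -0.86. Without Direct-78 FGB (-2.61, adjusted p = 0.052), C8A (-1.47, adjusted p = 0.0559), C1S1 (-0.98, adjusted p = 0.122), PLAU (1.72, adjusted p = 0.0624) and SERPIND1 (-1.29, adjusted p = 0.0581) were not called. In that fit 2 acute phase, 2 complement and 1 coagulation genes were called lower.

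Some chaperones and quality control factors of the endoplasmic reticulum were called lower with longer exposure. These genes are induced when unfolded proteins accumulate in that compartment. Of 20 tested members 9 were lower (CANX, HERPUD1, PDIA6, SEL1L, ATF4, ATF6, CRELD2, HSPA5 and P4HB) and 0 higher, beside 10.3% of all genes called lower. Their median change was -1.49 against -0.20 over all genes. With RLE and upper-quartile factors 6 were lower in each case, at medians of -1.25 and -1.07. A fit that included how many genes each library detected left 3 lower (median -0.84). When log2 total count was the covariate edgeR called 0, with 2 at an unadjusted p under 0.05, and the median was -0.15 against -0.09 over all genes. Without Direct-78 3 were lower, and in treated groups alone 3. CANX, the lectin chaperone calnexin (chr11:50293961-50325673, - strand), had 3089 to 4843 CPM in Control-78 (median 4472), 2467 to 3867 in S1-78 (median 3176), 2269, 2664, 2315 and 2093 in S2-78, 1353, 1909, 2116 and 1628 in S3-78 and 1470.5, 1577 and 1255 in Direct-78. Every treated library was below the control median, and all those of S2-78, S3-78 and Direct-78 lay below the lowest control. Its change was -1.56 (standard error 0.25, adjusted p = 0.000941), -1.25 (standard error 0.25, adjusted p = 0.0203) without Direct-78 and -1.22 (standard error 0.30, adjusted p = 0.0423) among treated groups. HERPUD1, a factor of endoplasmic reticulum-associated degradation, had 928 to 4606 CPM in Control-78 (median 3182), 468 to 2714 in S1-78 (median 1546), 932, 656, 435 and 403 in S2-78, 859, 772, 351 and 801 in S3-78 and 222, 585 and 164 in Direct-78. All 17 treated libraries were under the control median, S1-78 overlapped the controls and S3-78 did not. HERPUD1 changed by -2.86 (standard error 0.51, adjusted p = 0.00127), and by -2.10 (standard error 0.50, adjusted p = 0.0265) without Direct-78. PDIA6, a protein disulfide isomerase, had 30.2 to 82.8 CPM in Control-78 (median 44.2), 28.7 to 81.9 in S1-78 (median 39.7), 23.1, 20.5, 15 and 35.1 in S2-78, 17.7, 14.4, 5.92 and 23.1 in S3-78 and 0, 0 and 14.5 in Direct-78. The libraries of S3-78 and Direct-78 were below the control range, 2 of the Direct-78 libraries had no count, and the change was -2.94 (standard error 0.65, adjusted p = 0.0051). SEL1L, an adaptor of the degradation complex, changed by -2.29 (standard error 0.54, adjusted p = 0.00809), with 3 of the 7 longest-exposed libraries below the control range. Under the log2 total count covariate the change of SEL1L reversed to 0.12 and that of HERPUD1 was -0.73. Without Direct-78 SEL1L (-1.51, adjusted p = 0.0974) was not called.

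The promoters of these genes were searched for the endoplasmic reticulum stress element, a known binding motif of the transcription factors NFY and ATF6, which was chosen after the values were seen. It was spelled as CCAAT, 9 bases, CCACG and sought on both strands of a 300-base window at each gene's start. The element occurred in 39 of 32851 windows (0.119%) and in those of 10 of 1649 tested genes (0.606%). Of the 20 tested list members 18 had a window, and 6 of these held the element (CALR, CANX, CRELD2, HSP90B1, HSPA5 and PDIA6). Of the 6, 4 were called lower, and 4 of the 12 without it were also called lower. CALR (change 0.39) and HSP90B1 (-0.16) were not called. The other 4 tested genes with the element lie outside the list. Of these XLR3C was called higher, with a change of 3.29 (adjusted p = 0.0215), and PAN2 (1.36), XLR3B (0.83) and XLR3A (-1.33) were not called. The windows shown are those of the 4 list members called lower, which were picked by that call. They come from RefSeq, build GRCm38.p6, and are given 5′ to 3′ on the strand of the gene. Capitals mark the outer parts of the element, which in CRELD2 lies on the opposite strand and so reads CGTGG, 9 bases, ATTGG. CANX lies at chr11:50325624-50325923 (- strand), CRELD2 at chr15:88819396-88819695 (+ strand), HSPA5 at chr2:34771840-34772139 (+ strand) and PDIA6 at chr12:17266339-17266638 (+ strand).
CANX: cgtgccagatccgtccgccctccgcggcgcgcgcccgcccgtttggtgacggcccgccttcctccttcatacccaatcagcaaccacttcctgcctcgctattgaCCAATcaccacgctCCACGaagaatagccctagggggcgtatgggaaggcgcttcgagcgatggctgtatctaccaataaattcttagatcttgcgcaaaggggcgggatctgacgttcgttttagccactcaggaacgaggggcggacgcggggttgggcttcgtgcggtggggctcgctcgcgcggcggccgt
CRELD2: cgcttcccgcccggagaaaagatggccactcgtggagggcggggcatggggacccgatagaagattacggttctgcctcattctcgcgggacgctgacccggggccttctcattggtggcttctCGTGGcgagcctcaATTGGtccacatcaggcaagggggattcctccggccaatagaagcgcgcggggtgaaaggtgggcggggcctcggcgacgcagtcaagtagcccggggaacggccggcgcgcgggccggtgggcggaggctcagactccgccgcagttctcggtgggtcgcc
HSPA5: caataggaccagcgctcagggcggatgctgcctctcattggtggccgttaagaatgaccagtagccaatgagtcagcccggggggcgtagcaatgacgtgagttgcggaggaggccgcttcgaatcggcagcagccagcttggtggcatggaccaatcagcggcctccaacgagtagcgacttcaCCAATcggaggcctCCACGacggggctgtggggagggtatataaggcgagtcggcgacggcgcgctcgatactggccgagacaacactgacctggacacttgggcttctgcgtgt
PDIA6: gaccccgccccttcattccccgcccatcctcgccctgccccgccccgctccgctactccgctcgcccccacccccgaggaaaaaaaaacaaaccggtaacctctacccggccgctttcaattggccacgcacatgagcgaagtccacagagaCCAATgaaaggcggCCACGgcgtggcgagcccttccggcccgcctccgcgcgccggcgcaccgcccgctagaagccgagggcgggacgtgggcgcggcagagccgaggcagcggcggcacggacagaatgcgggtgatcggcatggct
The element begins 145, 126, 65 and 98 bases before the annotated start in CANX, CRELD2, HSPA5 and PDIA6. HSPA5, the chaperone BiP, had a mean of 599.8 ± 419.8 CPM (SD, n = 6) in Control-78, 250.3 ± 79.8 (n = 6) in S1-78, 178 ± 63.5 (n = 4) in S2-78, 255 ± 105 (n = 4) in S3-78 and 143 ± 80.7 (n = 3) in Direct-78. Its controls were spread over a wide range, and the treated groups overlapped one another. HSPA5 changed by -1.58 (standard error 0.50, adjusted p = 0.0358), and CRELD2 by -2.02 (standard error 0.67, adjusted p = 0.0412). A match describes the letters of the window and does not show binding.

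A minority of sterol and bile acid genes was called lower with more weeks of DCA. The counts below stand beside 10.3% of all genes called lower and 16.1% called in either direction. INSIG1, which holds the sterol sensor complex in the endoplasmic reticulum (chr5:28071363-28078662, + strand), had 462 to 1339 CPM in Control-78 (median 869), 327 to 743 in S1-78 (median 607), 424, 289, 479 and 178 in S2-78, 259.9, 375, 309 and 249 in S3-78 and 203, 223 and 189.6 in Direct-78. Every treated library was below the control median, and the 7 libraries of S3-78 and Direct-78 were below all controls. INSIG1 changed by -1.97 (standard error 0.33, adjusted p = 0.000941), -1.53 (standard error 0.34, adjusted p = 0.0203) without Direct-78 and -1.42 (standard error 0.33, adjusted p = 0.0357) among treated groups, and its group means followed the order of weeks, but with log2 total count in the fit the change was -0.39. Of 12 cholesterol synthesis genes 5 were lower (CYP51, FDFT1, EBP, DHCR7 and MVD) and 0 higher, at a median of -1.28. Of 12 genes of sterol sensing and lipoprotein uptake INSIG1 and APOE were lower (median -0.48). Without Direct-78 edgeR called 1 cholesterol synthesis gene lower (list median -0.74), and among treated groups 0. Of the sterol sensing genes 1 was higher and 1 lower without Direct-78, and 1 was lower among treated groups. With RLE factors 3 cholesterol synthesis genes were lower at a median of -1.03. With upper-quartile factors edgeR called 0 of the 12, 5 having an unadjusted p under 0.05, at a median of -0.87, and DESeq2 and limma voom each called 5. With log2 total count in the fit edgeR called 0 of the cholesterol synthesis genes and 0 of the sterol sensing genes, with 1 and 2 at an unadjusted p under 0.05 and medians of -0.36 and -0.15. CYP51, lanosterol demethylase, had 145 to 454 CPM in Control-78 (median 272), 82 to 312 in S1-78 (median 219), 158, 70.2, 215 and 258 in S2-78, 151, 44.6, 250.5 and 131 in S3-78 and 40.9, 59 and 92.6 in Direct-78. S1-78, S2-78 and S3-78 overlapped the controls, Direct-78 did not, and CYP51 changed by -1.67 (standard error 0.46, adjusted p = 0.0192). EBP, a sterol isomerase, had 61.8 to 567 CPM in Control-78 (median 251), 28.6 to 107 in S1-78 (median 80.3), 75.7, 131, 26.8 and 192 in S2-78, 7.52, 33.9, 46.8 and 18.3 in S3-78 and 58.1, 117 and 53.5 in Direct-78. All treated libraries were below the control median, and EBP was lower in S3-78 than in Direct-78 in every library. It changed by -2.07 (standard error 0.62, adjusted p = 0.0263), and by -2.86 (standard error 0.66, adjusted p = 0.0221) without Direct-78. Among treated groups EBP was not called (-0.62, standard error 0.64, adjusted p = 0.553). Its group mean was 285 CPM in Control-78, 76.5 in S1-78 and 76.1 in Direct-78. The call of CYP51 was lost without mouse 64 (adjusted p = 0.0589), that of FDFT1 lost without mice 64 or 66 (largest adjusted p = 0.0609), that of EBP lost without mice 90 or 64 (largest adjusted p = 0.053) and that of DHCR7 lost without mice 85, 56, 64 or 66 (largest adjusted p = 0.0805). The call of APOE was lost without mice 85, 86, 87, 88, 89, 90, 31, 33, 45, 55, 56, 59, 60 or 64 (largest adjusted p = 0.0929). The change of CYP51 was -0.41 and that of DHCR7 reversed to 0.24 with the total count covariate. Without Direct-78 CYP51 (-0.89, adjusted p = 0.224), FDFT1 (-1.04, adjusted p = 0.0763), DHCR7 (-0.68, adjusted p = 0.335) and APOE (-1.06, adjusted p = 0.0704) were not called.

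Of 10 genes of bile acid synthesis and transport BAAT and ABCB11 were lower, at a median change of -1.63 (-1.39 with RLE and -1.22 with upper-quartile factors). This count and that of fatty acid synthesis below stand beside 10.3% of all genes called lower. With log2 total count in the fit edgeR called 0 of the 10, with 1 at an unadjusted p under 0.05 and a median of -1.14. BAAT, which conjugates bile acids to amino acids, had 344 to 781 CPM in Control-78 (median 685), 93.1 to 559.8 in S1-78 (median 425), 332, 409, 381 and 156 in S2-78, 121, 265, 97.7 and 288 in S3-78 and 154, 95 and 189.6 in Direct-78. Its treated libraries were all below the control median, those of S3-78 and Direct-78 lay under the control range, and the change was -2.01 (standard error 0.39, adjusted p = 0.00221). ABCB11, the bile salt export pump, had 510.0 to 2360.0 CPM in Control-78 (median 1337), 335 to 2636 in S1-78 (median 1842), 1186, 2109.6, 688 and 215 in S2-78, 424, 689, 130.3 and 321 in S3-78 and 123, 438 and 142 in Direct-78. S1-78, S2-78 and mouse 56 of S3-78 overlapped the controls, Direct-78 did not, and ABCB11 changed by -2.76 (standard error 0.65, adjusted p = 0.00809). Without Direct-78 ABCB11 (-1.83, adjusted p = 0.102) was not called. Of 8 fatty acid and triglyceride synthesis genes ELOVL3, ACLY and ELOVL2 were lower, at a median of -0.30 that was 0.02 with upper-quartile factors. ACLY, which makes cytosolic acetyl-CoA, had a call lost without mice 85, 87, 88, 90, 33, 35, 45, 56, 59, 60, 64 or 66 (largest adjusted p = 0.0926), and ELOVL2 one lost without mice 85, 87, 88, 89, 90, 31, 33, 34, 35, 36, 45, 55, 56, 59, 60, 64 or 66 (largest adjusted p = 0.12).

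Several genes with higher levels in male than in female mouse liver were called lower with longer exposure. GSTP1, a glutathione S-transferase (chr19:4035407-4037985, - strand), had 12369 to 29776 CPM in Control-78 (median 24230.5), 4633 to 31305 in S1-78 (median 19134), 20661, 16426, 6811 and 5888 in S2-78, 2576, 2294, 5351 and 5099 in S3-78 and 1983, 3863 and 3194 in Direct-78. No library of S3-78 or Direct-78 reached the control range, while S1-78 overlapped it. GSTP1 changed by -3.10 (standard error 0.51, adjusted p = 0.000941), -2.41 (standard error 0.55, adjusted p = 0.0211) without Direct-78 and -2.80 (standard error 0.60, adjusted p = 0.0331) among treated groups. MUP3, a major urinary protein, had 12502 to 17952 CPM in Control-78 (median 14287), 469 to 10099.6 in S1-78 (median 6797), 7520.0, 8527, 1204 and 2658 in S2-78, 25.8, 2423, 400.3 and 3666 in S3-78 and 1472, 1994 and 2301 in Direct-78. All treated libraries were below the lowest control, S3-78 mouse 55 had the smallest value, and MUP3 changed by -3.05 (standard error 0.73, adjusted p = 0.00878). Among treated groups MUP3 was not called (-2.15, standard error 0.88, adjusted p = 0.135). ELOVL3, a very long chain fatty acid elongase, had 113 to 3605 CPM in Control-78 (median 1943), 45.1 to 9403 in S1-78 (median 6046), 809.9, 969, 190.3 and 25.3 in S2-78, 11.3, 15.1, 32 and 449 in S3-78 and 0, 0 and 8.68 in Direct-78. S1-78 held the highest values, Direct-78 was at or near 0, and the change was -8.57 (standard error 1.87, adjusted p = 0.00549). Without Direct-78 ELOVL3 (-5.18, adjusted p = 0.0624) was not called. Of 16 tested genes of the male-biased list 6 were lower (C8A, C9, CYP2D9, ELOVL3, GSTP1 and MUP3), with a list median of -1.55 (-1.28 with RLE and -1.12 with upper-quartile factors). Of 9 female-biased genes SULT3A1 was higher and 0 were lower, with a median of 1.33 (1.66 and 1.74). Over all genes 5.80% were called higher and 10.3% lower. With log2 total count in the fit edgeR called 0 genes of both lists, with 5 male-biased and 3 female-biased genes at an unadjusted p under 0.05 and medians of -0.79 and 1.94.

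SULT3A1, a sulfotransferase normally high in female liver (chr10:33857721-33879532, + strand), had 0 to 1.48 CPM in Control-78 (median 0.822), 0 to 2.37 in S1-78 (median 1), 0, 0, 3.53 and 25.3 in S2-78, 1021, 29.5, 5.33 and 12.7 in S3-78 and 9.69, 79.2 and 20.3 in Direct-78. The 7 libraries of S3-78 and Direct-78 were above every control, and mouse 55 of S3-78 was far above all others. SULT3A1 changed by 10.13 (standard error 1.70, adjusted p = 0.00127), and by 8.63 (standard error 1.13, adjusted p = 0.000211) without Direct-78. Without mouse 55 the change over all groups was 5.68, and the call held in 23 of 23 fits without 1 library. Genes of close families (CYP2C, CYP4A, GSTP, MUP with GM2083, SERPINA3) resemble each other in sequence, and how far the probes separate their copies was not tested.

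Genes for clearance of foreign compounds moved in both directions. CYP2C38, a cytochrome P450 (chr19:39389556-39463075, - strand), had 3.24 to 100.4 CPM in Control-78 (median 15.3), 2.92 to 65.3 in S1-78 (median 20.5), 38.9, 173, 26.8 and 47.8 in S2-78, 677, 497, 18.4 and 78 in S3-78 and 394, 444 and 318 in Direct-78. Direct-78 was above every control in all 3 libraries, and S3-78 was divided between mice 55 and 56, above the controls, and mice 59 and 60, within their range. CYP2C38 changed by 4.43 (standard error 0.78, adjusted p = 0.00127), 3.56 (standard error 0.76, adjusted p = 0.0203) without Direct-78 and 4.43 (standard error 0.88, adjusted p = 0.0331) among treated groups. CES2A, a carboxylesterase, had 438 to 1076 CPM in Control-78 (median 915), 65.5 to 1498 in S1-78 (median 699.8), 468, 387, 455 and 159.9 in S2-78, 216, 289, 47.4 and 289 in S3-78 and 74.3, 232 and 124 in Direct-78. S3-78 and Direct-78 were below the control range, and CES2A changed by -2.64 (standard error 0.53, adjusted p = 0.00268). CYP2F2, a P450 of liver and lung, had 1718 to 4338 CPM in Control-78 (median 3187), 194 to 6507 in S1-78 (median 3039.6), 3374, 3535, 1125 and 475 in S2-78, 694, 819, 112 and 793 in S3-78 and 338, 507 and 494 in Direct-78. S1-78 and S2-78 overlapped the controls, S3-78 and Direct-78 lay below them, and the change was -3.11 (standard error 0.68, adjusted p = 0.00485). CYP1A2, a target of the aryl hydrocarbon receptor, changed by -2.41 (standard error 0.69, adjusted p = 0.0215) with a call lost without mouse 64 (adjusted p = 0.0596). Of 41 tested members of the xenobiotic list 4 were higher (ALDH3A2, CYP2A5, CYP2C38 and CYP2C39) and 10 lower, at a median of -0.69. Over all genes 5.80% were called higher and 10.3% lower. Without Direct-78 1 of the list was higher and 1 lower. With log2 total count in the fit edgeR called 0 of the list, with 7 at an unadjusted p under 0.05. Without Direct-78 CYP2F2 (-2.29, adjusted p = 0.0726) and CYP1A2 (-1.98, adjusted p = 0.114) were not called. RLE factors gave 5 higher and 3 lower, as did upper-quartile factors, at medians of -0.47 and -0.34.

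NRF2, the factor that induces antioxidant enzymes, had 25 tested targets, with a median of 0.11. Of these 4 were higher (CBR1, CBR3, GSTA1 and NQO1) and 5 lower (GSTP1, PRDX1, KEAP1, GCLM and SRXN1). Over all genes 5.80% were called higher and 10.3% lower. The median was 0.35 with RLE and 0.50 with upper-quartile factors, but -0.76 with detected genes as covariate and -0.39 with limma voom. With log2 total count in the fit it was -0.35, and edgeR called 0, with 2 at an unadjusted p under 0.05. Thinned counts left 0 higher and 1 lower in edgeR. Without Direct-78 1 was higher and 1 lower. CBR1, a carbonyl reductase, had 7.04 to 32 CPM in Control-78 (median 13.8), 16.7 to 30.5 in S1-78 (median 23.4), 18.7, 28.5, 22.06 and 12.7 in S2-78, 78.9, 37.5, 18.9 and 26.3 in S3-78 and 56, 43.2 and 49.2 in Direct-78. It was above the control median in 16 of 17 treated libraries and changed by 1.51 (standard error 0.41, adjusted p = 0.0176), a call lost without mouse 64 (adjusted p = 0.0524). PRDX1, a peroxiredoxin, had 3467 to 4883 CPM in Control-78 (median 4105), 1645 to 4578 in S1-78 (median 3395), 4881, 5195, 1829 and 1163 in S2-78, 1621, 1860.4, 1068 and 1265 in S3-78 and 1661, 2006 and 1265 in Direct-78. S3-78 and Direct-78 lay below the controls, mice 43 and 44 of S2-78 at or above their upper end, and PRDX1 changed by -1.45 (standard error 0.38, adjusted p = 0.0141). NQO1, a quinone reductase, had 3.6 to 12.4 CPM in Control-78 (median 10.1), 5.42 to 56 in S1-78 (median 9.89), 15.1, 32.4, 45.3 and 4.87 in S2-78, 112, 32.7, 17.8 and 30.2 in S3-78 and 39.8, 85 and 0 in Direct-78. It was above all controls in 6 of the 7 longest-exposed libraries and at 0 in mouse 66. Its change was 2.42 (standard error 0.78, adjusted p = 0.0358), a call lost without mice 85, 87, 89, 90, 33, 35, 55, 64 or 65 (largest adjusted p = 0.0728). KEAP1, which marks NRF2 for degradation, changed by -1.15 (standard error 0.31, adjusted p = 0.0159), a call lost without mouse 64 (adjusted p = 0.0565). Without Direct-78 CBR1 (1.11, adjusted p = 0.112), PRDX1 (-1.29, adjusted p = 0.0678) and KEAP1 (-0.77, adjusted p = 0.118) were not called.

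Other genes that rose had varied roles. CTNND1, the cadherin partner p120-catenin (chr2:84600071-84650765, - strand), had 944 to 1578 CPM in Control-78 (median 1194), 932 to 6094 in S1-78 (median 1189), 2051, 1567, 4115 and 4649.6 in S2-78, 7472, 4456, 7477 and 6124 in S3-78 and 4781, 3066 and 4005 in Direct-78. All 7 libraries of S3-78 and Direct-78 were above every control, and each Direct-78 library lay below 3 of the 4 of S3-78. CTNND1 changed by 1.99 (standard error 0.52, adjusted p = 0.0139), and by 2.08 (standard error 0.47, adjusted p = 0.0203) without Direct-78. Among treated groups CTNND1 was not called (1.05, standard error 0.60, adjusted p = 0.278). CIRBP, a cold-inducible RNA-binding protein (chr10:80165985-80172786, + strand), had 140.0 to 865 CPM in Control-78 (median 436), 333 to 1500.05 in S1-78 (median 441), 251, 254, 872 and 1955 in S2-78, 2795, 1874, 1121 and 1550.2 in S3-78 and 1637, 1069.9 and 2654 in Direct-78. It was above the control range in the 7 longest-exposed libraries and also in mouse 32 of S1-78 and mice 45 and 47 of S2-78, and changed by 2.21 (standard error 0.49, adjusted p = 0.00513). AP2M1, a subunit of the clathrin adaptor AP2, had 85.9 to 217 CPM in Control-78 (median 120.2), 99.8 to 631 in S1-78 (median 135), 571, 229.7, 359 and 1365 in S2-78, 692, 462, 612 and 404 in S3-78 and 1029, 243 and 1330.1 in Direct-78. Every library from S2-78 onward exceeded the highest control, and AP2M1 changed by 2.60 (standard error 0.55, adjusted p = 0.00452), but by 0.40 with log2 total count in the fit. Among treated groups AP2M1 was not called (1.67, standard error 0.65, adjusted p = 0.12). MYB, a transcription factor of dividing blood progenitors (chr10:21124935-21160984, - strand), had 0.637 to 2.88 CPM in Control-78 (median 1.21), 0 to 4.24 in S1-78 (median 1.33), 5.76, 0, 2.65 and 15.6 in S2-78, 18.3, 1.59, 7.11 and 17.5 in S3-78 and 46.3, 7.2 and 55 in Direct-78. It was low in all groups, its group means followed the order of weeks, and 6 of the 7 longest-exposed libraries were above the controls. MYB changed by 4.54 (standard error 0.84, adjusted p = 0.00196) and 4.14 (standard error 1.08, adjusted p = 0.0468) among treated groups, and by 3.08 (standard error 0.89, adjusted p = 0.0511) without Direct-78, where it was not called. RAD54B, a homologous recombination factor, had 0 to 2.01 CPM in Control-78 (median 1.22), 1.82 to 8 in S1-78 (median 4.23), 2.88, 8.61, 1.47 and 4.87 in S2-78, 1.61, 1.99, 11.3 and 12.7 in S3-78 and 38.8, 25.9 and 15.9 in Direct-78. All treated libraries were above the control median and Direct-78 was highest, with a change of 3.34 (standard error 0.74, adjusted p = 0.00506), and the sign reversed to -0.80 once log2 total count entered as a covariate. Without Direct-78 RAD54B (1.80, adjusted p = 0.196) was not called. SH3GL2, endophilin A1, changed by 4.02 (standard error 0.95, adjusted p = 0.00809), was at 0 in mouse 66 and had a call lost without mouse 64 (adjusted p = 0.0684). The zinc finger gene ZFP931 changed by 2.54 (standard error 0.50, adjusted p = 0.00221), the potassium channel gene KCNK6 by 2.40 (standard error 0.61, adjusted p = 0.0138) and the uncharacterized gene 2810403A07RIK by 2.09 (standard error 0.47, adjusted p = 0.00621), or 0.25 with that covariate. SASH3, an adaptor of lymphocytes, had 335 CPM in mouse 59 and at most 152 in any other library, and changed by 2.33 (standard error 0.80, adjusted p = 0.0468), or by 1.36 without mouse 59. Its call was lost without mice 85, 87, 88, 89, 90, 33, 34, 35, 36, 59, 64 or 66 (largest adjusted p = 0.196).

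**Figure D3:**
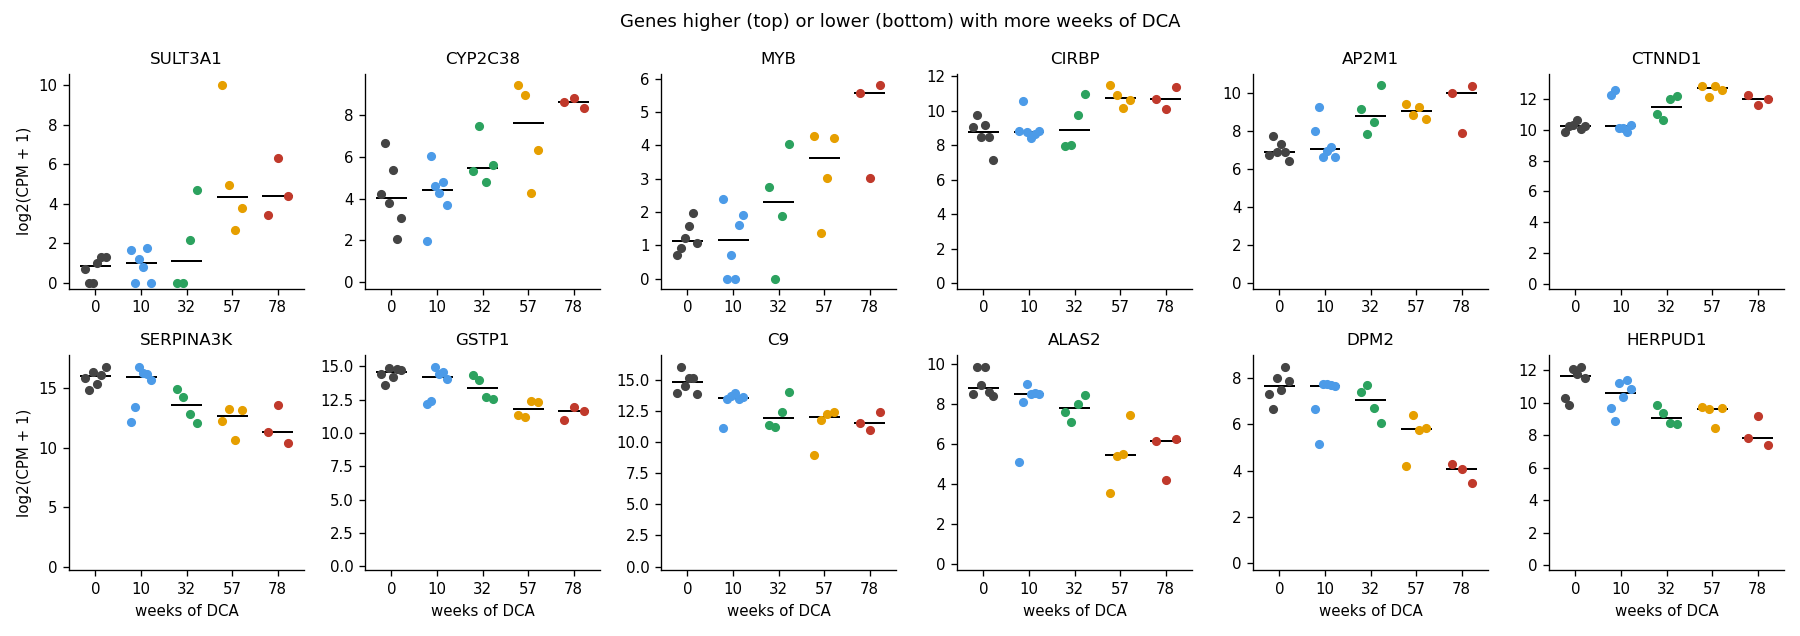
Level of 12 genes as log2(CPM + 1) in each library against weeks of DCA. Points are mice, coloured by group, and black lines are group medians. The upper panels show genes higher with more weeks (SULT3A1, with 1021 CPM in mouse 55, to CTNND1) and the lower panels genes lower with more weeks, such as GSTP1, whose S3-78 and Direct-78 libraries lie below all controls. These directions were the same with TMM, RLE and upper-quartile factors.

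ALAS2 and DPM2 were among the 10 largest falls named. ALAS2, the erythroid enzyme that begins heme synthesis (chrX:150547375-150570638, + strand), had 329.9 to 912 CPM in Control-78 (median 439.9), 33.7 to 507 in S1-78 (median 359), 190.2, 137, 251 and 342 in S2-78, 10.7, 41.1, 45 and 174 in S3-78 and 71, 17.3 and 75.3 in Direct-78. S3-78 and Direct-78 were below the controls in every library, and the erythroid markers, of which ALAS2 is one, were also low in S3-78. ALAS2 changed by -3.46 (standard error 0.61, adjusted p = 0.00127) and -2.81 (standard error 0.63, adjusted p = 0.0203) without Direct-78, and of the 4 tested erythroid markers it was the one called. DPM2, a subunit of dolichol-phosphate mannose synthase used in glycosylation (chr2:32570858-32573579, + strand), had 100.4 to 356 CPM in Control-78 (median 206), 34.7 to 214 in S1-78 (median 205), 169, 208, 103 and 65.3 in S2-78, 17.7, 82.9, 53.3 and 57.3 in S3-78 and 18.3, 15.8 and 10.1 in Direct-78. The 7 libraries of S3-78 and Direct-78 lay below the controls, and Direct-78 lay below all other libraries except that of mouse 55. DPM2 changed by -3.28 (standard error 0.54, adjusted p = 0.000941), -1.84 (standard error 0.49, adjusted p = 0.0394) without Direct-78 and -3.15 (standard error 0.64, adjusted p = 0.0331) among treated groups. LAMA3, a laminin chain of basement membranes, had 27.7 to 108 CPM in Control-78 (median 71.4), 6.1 to 52.1 in S1-78 (median 27), 21.6, 17.2, 10 and 0 in S2-78, 1.07, 13.2, 4.74 and 20.7 in S3-78 and 0 in each library of Direct-78. It had no count in Direct-78, all treated libraries were below the control median, and LAMA3 changed by -4.61 (standard error 0.91, adjusted p = 0.00231), and by -2.73 (standard error 0.73, adjusted p = 0.0395) without Direct-78. GM2083 had 243 to 2267 CPM in Control-78 (median 1643), 1.86 to 2162 in S1-78 (median 1121), 1332, 1382, 41.5 and 24.4 in S2-78, 0, 7.97, 17.2 and 50.1 in S3-78 and 0, 11.5 and 14.5 in Direct-78. S2-78 was divided between mice 43 and 44, within the control range, and mice 45 and 47, far below it, and GM2083 changed by -7.54 (standard error 1.90, adjusted p = 0.0138) and by -4.87 (standard error 1.88, adjusted p = 0.122) without Direct-78, where it was not called. SERPINA4-ps1, annotated as a pseudogene, changed by -4.43 (standard error 0.92, adjusted p = 0.00361). Without Direct-78 SERPINA4-ps1 (-3.24, adjusted p = 0.0555) was not called.

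Lists of energy metabolism are given beside the 16.1% of all genes called. Of 17 tested respiratory chain and ATP synthase genes NDUFV1, ATP5B and NDUFB5 were lower and 0 higher, at a median of -0.44. RLE and upper-quartile factors each gave 2 higher and 1 lower. NDUFV1, a flavoprotein of complex I, had 228 to 418 CPM in Control-78 (median 336), 78.2 to 551 in S1-78 (median 411), 412, 306, 142 and 53.6 in S2-78, 80.5, 78.9, 78.8 and 54.9 in S3-78 and 79.7, 117 and 66.6 in Direct-78. S3-78 and Direct-78 were below all controls, as were mice 45 and 47 of S2-78, and NDUFV1 changed by -2.37 (standard error 0.51, adjusted p = 0.00461) and by -2.12 (standard error 0.57, adjusted p = 0.0428) without Direct-78. The call of ATP5B was lost without mice 85, 87, 88, 89, 90, 33, 34, 35, 36, 45, 55, 56, 59, 60, 64 or 66 (largest adjusted p = 0.107), and that of NDUFB5 lost without mice 85, 86, 87, 88, 89, 90, 33, 34, 35, 36, 45, 55, 56, 59, 60, 64 or 66 (largest adjusted p = 0.106). Of 12 fatty acid oxidation genes ACADM was higher and 0 lower, at a median of -0.11 that was 0.14 with RLE and 0.25 with upper-quartile factors. ACADM, medium-chain acyl-CoA dehydrogenase, had 659 to 2279 CPM in Control-78 (median 949.9), 597 to 1507 in S1-78 (median 675), 1174, 853, 765 and 1571 in S2-78, 1214, 1181, 887 and 1139.5 in S3-78 and 2982, 2644 and 3799 in Direct-78. Direct-78 was above every other library, S3-78 lay within the control range, and the change was 1.19 (standard error 0.35, adjusted p = 0.0252), but 0.04 (standard error 0.35, adjusted p = 0.957) without Direct-78. Its call was lost without mice 64 or 66 (largest adjusted p = 0.105), and its sign reversed to -0.75 with log2 total count as a covariate. Of 14 tested genes of PPARA, the fatty acid sensor, and its targets SLC27A1 was higher and SLC27A2 lower, at a median of -0.11. That median was 0.10 with RLE factors, 0.22 with upper-quartile factors and -1.43 with log2 total count in the fit. The call of SLC27A2 was lost without mice 85, 87, 88, 89, 90, 45, 55, 59, 60, 64 or 66 (largest adjusted p = 0.101). SLC27A1, a fatty acid transporter, had 51.2 to 149 CPM in Control-78 (median 59.8), 52.2 to 136 in S1-78 (median 66.8), 40.4, 28.5, 98.3 and 138 in S2-78, 232, 227, 200.1 and 129 in S3-78 and 266, 139.7 and 282 in Direct-78. It was above the controls in 5 of the 7 longest-exposed libraries and changed by 1.75 (standard error 0.38, adjusted p = 0.00452). Without Direct-78 SLC27A1 (1.28, adjusted p = 0.0555) was not called. Of 15 glycolysis and gluconeogenesis genes PFKL was higher and 0 lower, at a median of 0.47, with a call lost without mice 85, 87, 88, 89, 90, 33, 34, 35, 36, 55, 59, 64 or 66 (largest adjusted p = 0.147). edgeR called 0 of 3 tested pyruvate dehydrogenase genes (1 at an unadjusted p under 0.05, median -1.10), 0 of 6 tricarboxylic acid cycle genes (2, median -0.27) and 0 of 6 glycogen genes (2, median -0.71). DESeq2 called 0, 1 and 0 of these and limma voom 1, 1 and 1. The pyruvate dehydrogenase kinases PDK1, PDK2, PDK3 and PDK4 were not on the panel.

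The 6 genes whose group means left a straight line were COL1A1, CYP4A10, CYP4A14, MLLT11, CASP2 and BMP6, and none was called in the trend over all groups. COL1A1, the alpha 1 chain of fibrillar collagen I (chr11:94936224-94953042, + strand), had 10.6 to 45.2 CPM in Control-78 (median 25.1), 63.3 to 983 in S1-78 (median 252), 544, 396, 148 and 62.4 in S2-78, 22.6, 14.7, 149 and 127 in S3-78 and 30.1, 108 and 30.4 in Direct-78. Each S1-78 and S2-78 library was above all controls, S3-78 was divided, and 1 Direct-78 library exceeded the controls. The adjusted p for departure from a line was 0.0387. Mouse 36, whose library held pancreas and muscle genes, had the highest level. CYP4A10, a fatty acid hydroxylase induced by PPARA, had 0.655 to 8.88 CPM in Control-78 (median 1.55), 0 to 16.6 in S1-78 (median 2.61), 5549.9, 8080.1, 0 and 0 in S2-78, 12.9, 10.4, 0 and 11.1 in S3-78 and 11.8, 72 and 37.6 in Direct-78, and CYP4A14, a related enzyme (chr4:115486200-115496142, - strand), had 0 to 57.7 CPM in Control-78 (median 0.995), 0 to 11.9 in S1-78 (median 4.85), 7839.9, 10697, 0 and 0.975 in S2-78, 29, 53, 3.55 and 3.98 in S3-78 and 380.0, 3204 and 305 in Direct-78. Mice 43 and 44 of S2-78 held the highest values of both genes, mice 45 and 47 of the same group were at or near 0, and CYP4A14 was also high in all 3 Direct-78 libraries. The adjusted p was 0.0094 for CYP4A10 and 0.0461 for CYP4A14. MLLT11, a small protein first found fused to MLL in leukaemia, had 6.12 to 15.1 CPM in Control-78 (median 10), 13.3 to 32.4 in S1-78 (median 14), 2.88, 9.27, 21.5 and 23.4 in S2-78, 20.9, 23.5, 18.9 and 28.6 in S3-78 and 0 in each library of Direct-78. CASP2, an initiator caspase, had 5.33 to 28.2 CPM in Control-78 (median 15.9), 8.66 to 38.5 in S1-78 (median 29.8), 10.8, 11.9, 16.8 and 30.2 in S2-78, 29, 34.7, 20.1 and 31.8 in S3-78 and 1.08, 0 and 0 in Direct-78. Both were detected in all 20 libraries outside Direct-78 and at 0 or with 1.08 CPM in Direct-78, where 0 counts allow at most 4.34 CPM (adjusted p = 0.026 and 0.0304). BMP6 was the sixth gene (adjusted p = 0.0461), named after its values were seen, and was at 0 in the Direct-78 libraries. The count of 6 became 1 without mouse 85, 64 or 65, 2 without mouse 89, 90, 33 or 35, 3 without mouse 87, 88, 56 or 60, 13 without mouse 36 or 66, 16 without mouse 32 and 30 without mouse 47.

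**Figure D4:**
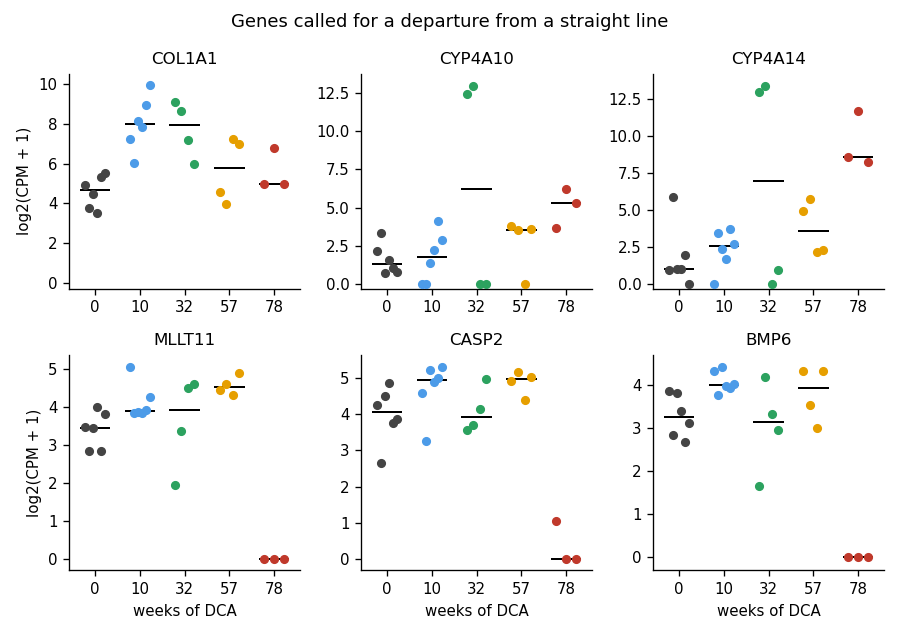
Level of the 6 genes called for a departure from a straight line, as log2(CPM + 1) in each library against weeks of DCA. Points are mice and black lines are group medians. COL1A1 is highest at 10 and 32 weeks, CYP4A10 and CYP4A14 are high in 2 of the 4 libraries at 32 weeks, and MLLT11, CASP2 and BMP6 are at or near 0 in the 3 libraries at 78 weeks.

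Collagens as a list had 11 tested members, of which edgeR called 0 in the trend over all groups (2 at an unadjusted p under 0.05), DESeq2 1 lower and limma voom 0. Their median change was -1.47 over all groups, -0.30 without Direct-78 and -2.42 among treated groups, where 2 were called lower. Of 18 other matrix genes TGFBR1 and ITGB1 were lower (median -0.13, but 0.08 with RLE and 0.25 with upper-quartile factors). Over all genes 10.3% were called lower. TGFBR1, a receptor for transforming growth factor beta, had 151 to 319 CPM in Control-78 (median 237), 58.6 to 197 in S1-78 (median 156), 133, 229.7, 186 and 127 in S2-78, 128, 92.9, 149 and 83.6 in S3-78 and 36.6, 76.3 and 47.8 in Direct-78. All treated libraries were below the control median, Direct-78 had the lowest median, and TGFBR1 changed by -1.60 (standard error 0.36, adjusted p = 0.00622). Without Direct-78 TGFBR1 (-0.82, adjusted p = 0.13) was not called. The call of ITGB1 was lost without mice 59, 64 or 66 (largest adjusted p = 0.0869). COL4A1, a basement membrane collagen, had 2.67 to 19.7 CPM in Control-78 (median 11), 4.66 to 59.7 in S1-78 (median 36.4), 59.1, 65.5, 37.1 and 10.7 in S2-78, 27.9, 4.78, 9.47 and 10.3 in S3-78 and 10.8, 0 and 15.9 in Direct-78. It was not called (adjusted p = 0.49), and mouse 44 of S2-78 held the highest value.

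The remaining lists are also to be read beside the 16.1% of all genes called. edgeR called 0 of 46 tested cell cycle genes, with 12 at an unadjusted p under 0.05 and a median change of 0.78. There were 6 higher with RLE factors, 8 higher with upper-quartile factors, 8 higher and 1 lower with DESeq2 and 2 higher with limma voom. With log2 total count in the fit edgeR called 0, with 1 at an unadjusted p under 0.05, and the median turned to -0.36. Of 26 p53 and cell death genes BIRC3, an inhibitor of apoptosis, was higher, with a change of 1.93 (standard error 0.56, adjusted p = 0.0223), and CFLAR, an inhibitor of caspase 8, was lower, with -1.80 (standard error 0.53, adjusted p = 0.0235). The call of BIRC3 was lost without mouse 64 (adjusted p = 0.0691), and that of CFLAR lost without mice 64 or 66 (largest adjusted p = 0.0607). Of 18 liver tumour and fetal liver genes NQO1 was higher and GSTP1, SQSTM1 and CTNNB1 were lower, at a median of 0.35. SQSTM1, the autophagy receptor p62, had 421 to 1273 CPM in Control-78 (median 737), 110.0 to 569 in S1-78 (median 428), 332, 549, 369 and 72.1 in S2-78, 168, 290.2, 151 and 169.5 in S3-78 and 63.5, 249 and 53.5 in Direct-78. All treated libraries were below the control median, and SQSTM1 changed by -2.48 (standard error 0.49, adjusted p = 0.00228) and -1.85 (standard error 0.46, adjusted p = 0.0344) without Direct-78. With log2 total count in the fit its change was -0.71, those of PSMB9, NFIL3 and KRT7 were 0.11, -0.45 and 0.50, and those of CTNNB1 and H2-K1 reversed to 0.33 and 0.38. Of 12 WNT pathway genes CTNND1 was higher and CTNNB1 lower (median -0.13, 0.11 with RLE and 0.27 with upper-quartile factors), and the call of CTNNB1, beta-catenin, was lost without mice 85, 87, 89, 90, 31, 33, 34, 35, 36, 45, 56, 59, 60, 64 or 66 (largest adjusted p = 0.121). Of 22 insulin and IGF genes TSC2, a brake on mTOR, was lower by -1.85 (standard error 0.44, adjusted p = 0.00809), and FOXO3 was lower with a call lost without mice 85, 86, 87, 88, 90, 33, 34, 35, 36, 45, 55, 56, 59, 60, 64 or 66 (largest adjusted p = 0.106) (list median -0.04, 0.16 with RLE and 0.33 with upper-quartile factors). Of 18 interferon and antigen presentation genes PSMB9 was higher and BST2 and H2-K1 lower (median 0.27). The call of PSMB9 was lost without mice 85, 87, 89, 90, 34, 35, 59, 64 or 66 (largest adjusted p = 0.135), and that of H2-K1 lost without mice 85, 87, 89, 90, 31, 33, 34, 35, 36, 45, 59, 60, 64, 65 or 66 (largest adjusted p = 0.127). NFIL3 was lower among 5 clock genes (median -1.18), a call lost without mice 87, 90 or 64 (largest adjusted p = 0.0597), and ASS1 was lower among 10 urea cycle and amino acid genes (median 0.23), a call lost without mice 64 or 66 (largest adjusted p = 0.0558). Without Direct-78 BIRC3 (1.604, adjusted p = 0.0998), CFLAR (-1.35, adjusted p = 0.117) and TSC2 (-0.89, adjusted p = 0.134) were not called. edgeR called 0 of 9 HIF1A targets (3 at an unadjusted p under 0.05, median 0.20) and 0 of 15 immediate-early genes (4, median -0.86). The immediate-early median turned to 1.27 with log2 total count as covariate and to 0.25 with detected genes as covariate. DESeq2 called 2 higher of the HIF1A targets and 1 higher and 2 lower of the immediate-early genes, and limma voom 1 higher and 1 lower, and 2 higher. Among cell type markers, FGB of hepatocytes and ALAS2 of erythroid cells were lower, and KRT7 of cholangiocytes, CAMP of neutrophils and CD79A of lymphocytes were higher. Each was the 1 called marker of its list. Of 4 tested cholangiocyte markers 2 had a positive and 2 a negative change, and of 4 lymphocyte markers 3 and 1. CAMP was the 1 tested neutrophil marker, and S100A9, ELANE and CXCR2, on the panel but not tested, had no count in Direct-78. Of 9 hepatocyte markers 9 had a negative change, and of 4 erythroid markers 3. The call of KRT7 was lost without mice 85, 87, 88, 89, 33, 34, 36, 59, 64 or 66 (largest adjusted p = 0.163), that of CAMP lost without mice 85, 87, 88, 89, 90, 33, 34, 35, 36, 45, 59, 60, 64 or 66 (largest adjusted p = 0.216) and that of CD79A lost without mice 87, 59, 64 or 66 (largest adjusted p = 0.0896).

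**Figure D5:**
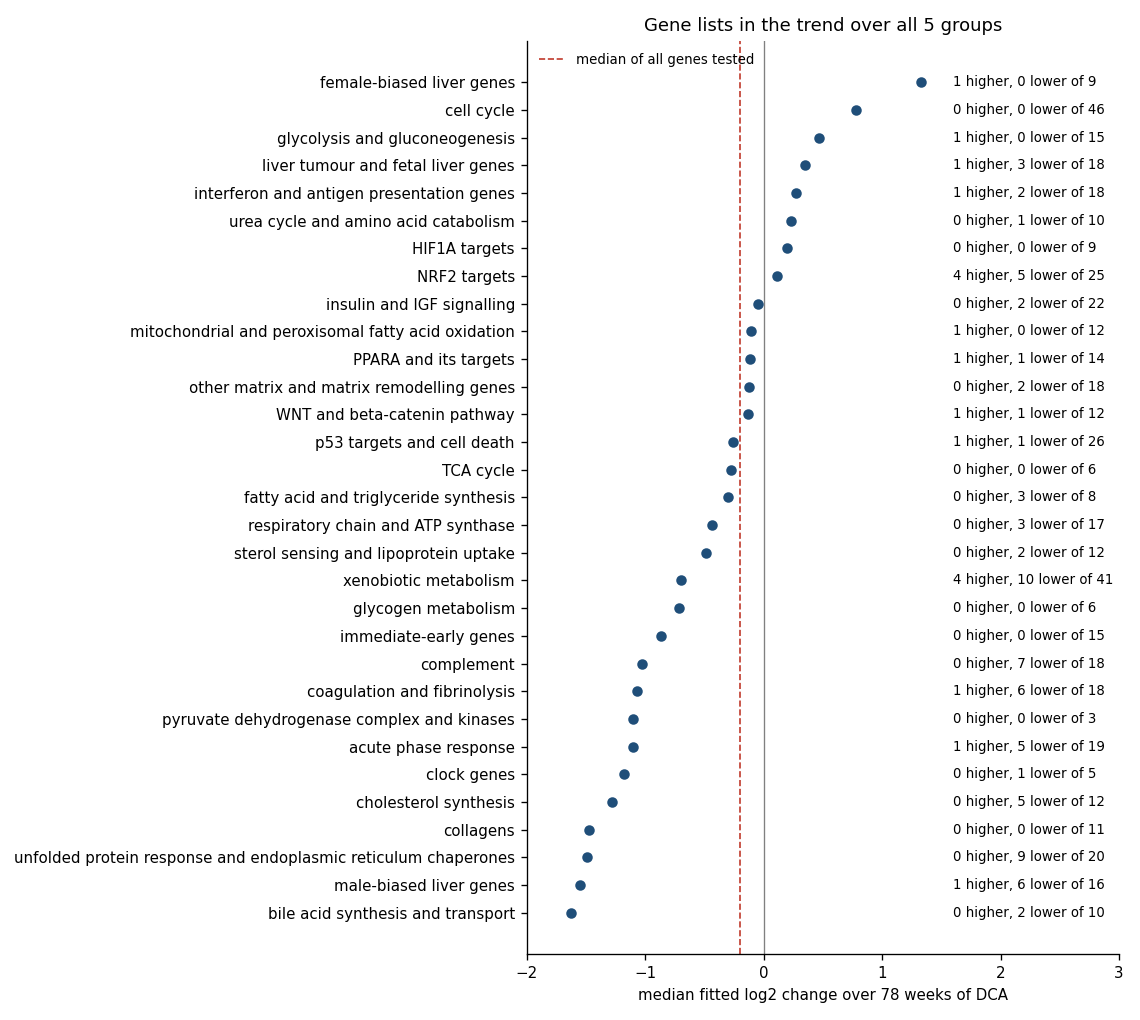
Median fitted log2 change over 78 weeks of DCA for each of 31 gene lists (points), with the median of all 2205 genes as a dashed line and the number of members called higher or lower at the right. Bile acid genes have the lowest median, -1.63, and female-biased liver genes the highest, 1.33. The fit uses TMM factors, and with upper-quartile factors the median of all genes is 0.20.

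Genes that the study named for expression were also followed. SDPR, the caveolar protein cavin-2, had 23.1 to 54.7 CPM in Control-78 (median 42.4), 80 to 176 in S1-78 (median 103), 93, 90, 119 and 51.7 in S2-78, 211, 142, 118 and 103 in S3-78 and 123, 108 and 30.4 in Direct-78. Treated libraries lay above the control median in 16 of 17 cases, with no order by weeks, and the trend was not called (log2 change 0.88, standard error 0.48, adjusted p = 0.187). IRS1, the insulin receptor substrate, had 74.9 to 188 CPM in Control-78 (median 140.1), 31.5 to 64 in S1-78 (median 47.5), 43.2, 60.2, 69.4 and 38 in S2-78, 33.3, 45.4, 74.6 and 82.8 in S3-78 and 141, 86.4 and 56.4 in Direct-78. It was below the control median in 16 of 17 treated libraries, below the control range in all of S1-78 and S2-78, and within it in 2 of the 3 Direct-78 libraries. The trend of IRS1 was not called (log2 change -0.46, standard error 0.42, adjusted p = 0.456), and its adjusted p for a departure from a line was 0.0829. The change of IRS1 ran from -0.87 to -0.26 without 1 library and from -1.01 to -0.07 over 15 alternatives. CEBPB, a transcription factor of the acute phase response, had 6276 to 24092 CPM in Control-78 (median 21076), 2596 to 15920.1 in S1-78 (median 4512), 3926, 3355, 8902 and 37431 in S2-78, 33865, 16676, 16288 and 18428 in S3-78 and 28668, 21989.6 and 18109.9 in Direct-78. Of S1-78, 4 of 6 libraries were below the control range, as were mice 43 and 44 of S2-78, each treated group overlapped the controls, and CEBPB was not called (log2 change 0.81, standard error 0.57, adjusted p = 0.316). HES1, a target of Notch, had 47 to 115 CPM in Control-78 (median 98.8), 95.3 to 473 in S1-78 (median 167), 41.1, 58.9, 102 and 79 in S2-78, 139, 129, 185 and 89.9 in S3-78 and 74.3, 145 and 55 in Direct-78. Its groups overlapped throughout, it was not called (log2 change -0.36, standard error 0.49, adjusted p = 0.622), and the sign of its change turned to 0.10 without mouse 31. SERPINA3 was not on the panel under that name.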

How the data were processed

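TempO-Seq measured 2755 probed genes in 78 mouse liver libraries. The deposited count table holds raw counts (Bowtie, mm10), and the authors' 2 signal tables hold, for 68 libraries, counts plus 1 divided by median-ratio factors (Partek 10.0.22.0524, DESeq2), 1 of them filtered to 2205 genes. Raw counts of the 2205 genes in 23 libraries were fitted against weeks of DCA in edgeR 4.0.16 (R 4.3.3; TMM factors, robust quasi-likelihood F test, 2-sided), with Benjamini-Hochberg adjusted p of 0.05 or less and a change beyond 1.5-fold, and tested on simulated data. Median total counts per group ran from 671116 to 3505219.5, and genes at 0 were bounded by 3 counts. Named genes were the 10 largest rises and 10 largest falls called with and without Direct-78 at a group mean of at least 10 CPM, the 3 largest of each direction in strict order of weeks, the 5 smallest p for a departure from a line, up to 4 members of each of 42 lists (31 pathway, 11 cell type) and genes the study named; others were chosen after their values were seen. Members and lists were chosen with earlier results of these data known. Alternatives were RLE and upper-quartile factors, no filter, filterByExpr, DESeq2 1.42.0, limma 3.58.1 voom, all libraries, depth covariates, thinned counts, rank of the group from 0 to 4, linear contrasts, adjusted p alone, and leaving out each library. Coordinates are GRCm38 (GENCODE vM21), matched for 175 of 178 named genes. Python 3.11.15, numpy 2.4.6 and matplotlib 3.10.9 drew figures. The result of 1 member of a list is not reported here.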

Additional observations from a re-analysis of the deposited data

Results flagged for a closer look

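In each group of 4 or 6 libraries, the lowest and highest library were compared with their neighbours by Dixon's test for single samples far from the rest. Of 396 groups of values tested, over 99 measures, 46 had 1 library far from the others. The cut-off passes about 1 in 20 groups by chance only if values are normally distributed. CPM values can be skewed or at 0, so that rate is not a reference for the 46. The measures are not independent of each other. Values are in CPM, with the nearest other library of the same group in brackets. In mouse 86 of Control-78, these were CYP4A10 8.88 (3.5), CYP4A14 57.7 (2.88), SLC27A1 149 (81.6), APOE 81162 (50246), PLAU 49.8 (19.3), BIRC3 272 (126) and TSC2 62.2 (164). In mouse 87 of Control-78, this was the summed macrophage and Kupffer cell markers 2205 (1041). In mouse 90 of Control-78, these were the summed cholangiocyte markers 506 (171) and SERPINA4-ps1 5365 (2220.5). In mouse 31 of S1-78, these were NQO1 56 (12.7), C9 2303 (11239), MLLT11 32.4 (18.1), HES1 473 (177) and CD79A 13 (3.71). In mouse 32 of S1-78, these were AP2M1 631 (261), CIRBP 1500.05 (457), 2810403A07RIK 413 (189), ACADM 1507 (747) and TGFBR1 58.6 (146). In mouse 34 of S1-78, these were PDIA6 81.9 (45.4) and SERPINA4-ps1 3522 (1241). In mouse 36 of S1-78, these were the summed acinar pancreas markers 33134 (309) and the summed muscle markers 9092 (96.6). In mouse 43 of S2-78, this was the summed muscle markers 874 (83.8). In mouse 44 of S2-78, this was CYP2C38 173 (47.8). In mouse 45 of S2-78, these were DHCR7 187 (100.4), CAMP 3.24 (0) and CD79A 35.9 (5.85). In mouse 47 of S2-78, these were the summed acinar pancreas markers 18979.7 (55.9), SULT3A1 25.3 (3.53), SH3GL2 24.4 (4.63), KCNK6 49.7 (16.5), 2810403A07RIK 691 (224), CEBPB 37431 (8902) and SEL1L 46.8 (184). In mouse 55 of S3-78, these were SULT3A1 1021 (29.5), NQO1 112 (32.7) and CEBPB 33865 (18428). In mouse 56 of S3-78, this was SQSTM1 290.2 (169.5). In mouse 59 of S3-78, these were SASH3 335 (51.8), HERPUD1 351 (772), PLAU 168 (32.7) and BIRC3 756 (196). In mouse 60 of S3-78, these were NDUFV1 54.9 (78.8) and ELOVL3 449 (32). Direct-78, with 3 libraries, was not tested. Mice 86 of Control-78 and 47 of S2-78 each stood apart in 7 measures. The causes were not tested.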

How the results depend on the processing

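Counts of called genes are given in the order all 5 groups (355), without Direct-78 (85), treated groups only (62) and departure from a line (6), where an alternative moved any of them by more than 1.5 times. With RLE factors the counts were 369, 101, 8 and 8. With upper-quartile factors the counts were 367, 114, 5 and 7. With DESeq2 the counts were 601, 256, 334 and 100. With limma voom the counts were 454, 137, 133 and 22. With all 78-week libraries the counts were 676, 104, 244 and 2. With log2 total count as covariate the counts were 0, 1, 0 and 0. With number of detected genes as covariate the counts were 112, 57, 0 and 0. With thinned counts the counts were 125, 40, 16 and 1. With linear contrast over all 13 groups in 1 fit the counts were 780, 292 and 605 (no value for the departure). Without mice 36 and 47, whose libraries held pancreas genes the counts were 367, 56, 52 and 14. With log2 total count as covariate the counts at an unadjusted p under 0.05 were 257, 315, 150 and 235, and with the number of detected genes they were 598, 520, 480 and 237. The other alternatives (no filter, filterByExpr genes, rank of the group in place of weeks, adjusted p alone and linear contrast, groups of the trend) left each count they gave within 1.5 times. Adjusted p alone and that linear contrast gave no value for the departure. Leaving out 1 library gave 129 (without Direct-78 mouse 64) to 478 (without S1-78 mouse 32), 26 (without Control-78 mouse 88) to 193 (without S1-78 mouse 31), 0 (without S1-78 mouse 33) to 319 (without S1-78 mouse 32), 1 (without Control-78 mouse 85) to 30 (without S2-78 mouse 47) in that order. Of 76 called named genes, 65 kept the call with RLE factors, 59 with upper-quartile factors, 75 with DESeq2, 70 with limma voom, 40 with detected genes as covariate, 44 with thinned counts and 0 with log2 total count as covariate, where 7 reversed. Over 15 alternatives the changes of SERPINA3K (-5.12 to -3.52), C9 (-4.49 to -2.76) and GSTP1 (-3.53 to -2.64) stayed near their size, while with that covariate these kept their sign at much reduced size: AP2M1 0.40, 2810403A07RIK 0.25, HERPUD1 -0.73, CYP51 -0.41, INSIG1 -0.39, FGB -0.18, APCS -0.48, SERPINA3N -0.86, F5 -0.36, KLKB1 -0.39, SQSTM1 -0.71, NFIL3 -0.45, PSMB9 0.11 and KRT7 0.50. Log2 changes over all 5 groups that changed sign were CYP4A10 -4.69, MLLT11 0.52 and COL4A1 0.11 (all 78-week libraries), RAD54B -0.80, CYP4A10 -12.27, MLLT11 1.04, CASP2 0.98, CYP4A14 -7.36, HES1 0.55, ACADM -0.75, DHCR7 0.24, SEL1L 0.12, C1S1 0.49, CTNNB1 0.33 and H2-K1 0.38 (log2 total count as covariate), MLLT11 0.22, CYP4A14 -0.79 and HES1 0.25 (number of detected genes as covariate), HES1 0.10 (without S1-78 mouse 31), MLLT11 0.027 (without Direct-78 mouse 64), MLLT11 0.014 (without Direct-78 mouse 65), MLLT11 0.013 (without Direct-78 mouse 66). Without 1 library MLLT11 ranged from -0.74 to 0.027 and HES1 from -0.53 to 0.10. The causes were not tested. Depth falls with weeks of DCA, which limits what a depth covariate can separate, and 121 genes had no count in Direct-78, where a level under 3 counts per library could not be seen.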
